A study of Mus musculus with 8 samples.

Results

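The genes described here are 38 mouse genes of transforming growth factor-beta (TGF-beta) signalling and of the extracellular matrix, chosen by their symbols. Their choice was made with earlier results of these data known. The 38 genes are 3 ligands, 2 receptors, 8 SMADs, 9 genes for a co-repressor and targets of the pathway, 9 matrix proteins, 2 cytoskeletal proteins of contractile cells and 5 genes for crosslinking and turnover of the matrix. All 38 were represented on the array, by 50 of its 39429 probes, and 37 were among the 14476 genes tested. The exception was Mmp9, a gelatin-degrading protease, whose probe was well above background on 0 of 8 arrays.

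RNA came from primary cultures of proximal tubule cells, an epithelium that takes back most of the kidney's filtrate, raised from the kidney cortex of male C57/BJ mice aged 6 weeks. Of these cultures, 4 samples received 1 uM GW4064 for 24 h and 4 received the solvent DMSO for 24 h, all in DMEM without serum. GW4064 is a man-made activator of FXR, which senses bile acids as a nuclear receptor. The cells were enriched by sieving and pelleting digested tubules, no sort for a cell type is stated, and each sample was read on its own 1-colour Agilent array. The comparison asked which transcripts differed between agonist and solvent.

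TGF-beta ligands are secreted in a latent form, and once released they bring together a type II and a type I receptor kinase. The type I receptor phosphorylates Smad2 and Smad3, which enter the nucleus with Smad4, whereas the related bone morphogenetic proteins (BMPs) signal through Smad1, Smad5 and Smad9. In the kidney the pathway is known for raising collagen and fibronectin synthesis during fibrosis, and cultured tubule cells given TGF-beta take on mesenchymal features.

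The treatment was visible in known FXR targets. Slc51a, a subunit of the basolateral bile acid transporter, had relative signals of 9.67 to 12.8 on the GW4064 arrays and 0.0742 to 0.127 on the DMSO arrays. Its partner subunit Slc51b had 12.3 to 13.6 with GW4064 and 1.07 to 1.36 with DMSO. Relative signal is the spot brightness divided by the 75th percentile of its own array, so that 1 stands for that percentile. Between 61.4% and 65.7% of probes were well above background on each array. There were 2 slides of 4 arrays, and each slide carried 2 GW4064 and 2 DMSO samples. GW4064 samples always took the last places on a slide and DMSO samples the first, so place and treatment cannot be told apart.

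The called members were mostly on the effector side of the pathway. At an adjusted p of 0.05 in limma over all 14476 genes, 11 of the 37 members were higher with GW4064 and 3 were lower, where 11.8% of all genes were higher, 8.95% were lower and 20.8% were called in either direction. The 13 ligand, receptor and SMAD genes held 1 gene that rose and 2 that fell, with a median log2 fold change of -0.06. The 24 tested target, matrix, cytoskeletal and turnover genes held 10 that rose and 1 that fell, with a median of 0.20. Over all 37 members the median was 0.13, against 0.01 over all genes tested. The members' median was 0.079 after quantile normalization and 0.080 in the deposited log2 table, where that of all genes was 0.000. Since the members were chosen with earlier results of these data known, these shares and medians describe the list and test no excess.

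The differences were small. Only Smad9 and Tgfbi differed by 1.5-fold or more, and 0 members reached 2-fold. For 15 members the GW4064 and DMSO values did not overlap, 11 of them higher and 4 lower, where 26.2% of all genes did not overlap. Of the 14 called members, 13 had groups that did not overlap. Calls and overlap were read from the same values, so the one is not separate support for the other.

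**Figure D1:**
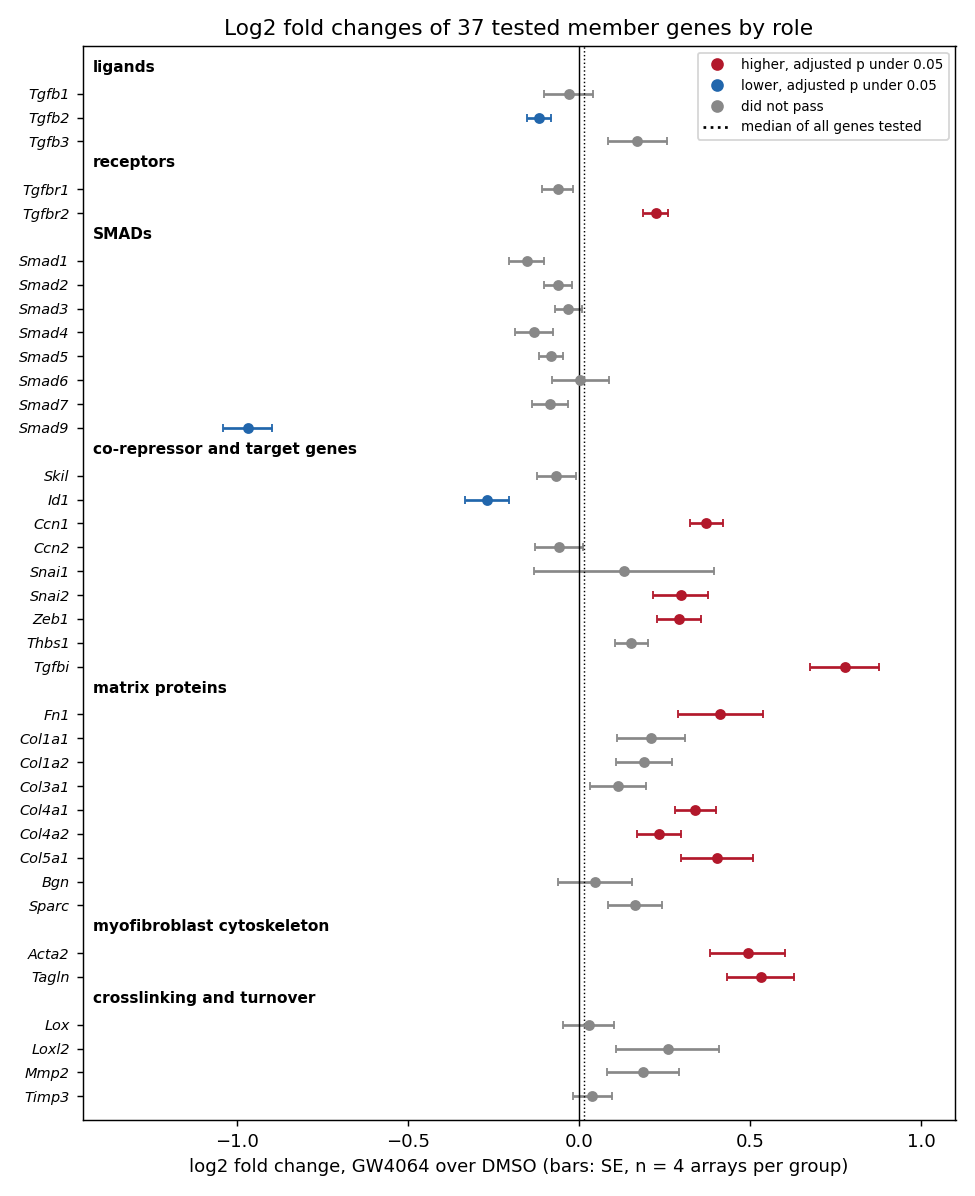
Log2 fold change (GW4064 over DMSO) of the 37 tested members on the horizontal axis, grouped by role down the page, with bars for the standard error (n = 4 arrays per group) and colour for an adjusted p under 0.05 in limma. The 9 matrix genes all lie right of 0, at 0.05 to 0.41, while 7 of the 8 SMADs lie left of it and Smad9 lies farthest left at -0.97.

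Among the 3 ligands, Tgfb2 was the one that passed, and by a small margin. Its relative signal was 1.99, 1.94, 2.03 and 1.92 on GW4064 arrays 1 to 4, against 2.14, 2.14, 2.17 and 2.10 on DMSO arrays 1 to 4. All GW4064 values lay below all DMSO values, and the transcript fell by 0.12 ± 0.03 (SE, n = 4 each) on the log2 scale (adjusted p = 0.0442 in limma). A second Tgfb2 probe, dimmer than the one used, differed by -0.03 ± 0.04. Tgfb1, the ligand most often linked to kidney fibrosis, had 0.375 to 0.420 with GW4064 and 0.359 to 0.436 with DMSO, so the groups overlapped, and the interval of its log2 difference ran from -0.19 to 0.13 (95%). Tgfb3 had 1.06, 1.05, 1.33 and 1.09 with GW4064, against 0.941, 0.978, 1.099 and 0.994 with DMSO. Replicate 3 was the highest of each group for Tgfb3, and its difference of 0.17 ± 0.09 did not pass (adjusted p = 0.201 in limma).

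Of the 2 receptors, 1 passed. Tgfbr2, the type II receptor that binds the ligand, had 14.4, 13.9, 13.5 and 14.3 with GW4064, against 12.3, 11.98, 11.6 and 12.2 with DMSO. The lowest GW4064 value was above the highest DMSO value, and Tgfbr2 rose 1.17-fold (0.22 ± 0.04 on the log2 scale, adjusted p = 0.00429 in limma). The difference was 0.22 on each slide taken alone. A second Tgfbr2 probe differed by 0.17 ± 0.06 and did not pass. Tgfbr1, the type I receptor that phosphorylates Smad2 and Smad3, ran from 1.20 to 1.33 with GW4064 and from 1.27 to 1.37 with DMSO, and its difference of -0.06 ± 0.05 did not pass.

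Smad9 was the one SMAD that passed under the processing used here, and it had the largest fold among the 37 members. Its protein, also called Smad8, is a receptor-regulated SMAD of the BMP branch. Its relative signal was 0.0415, 0.0389, 0.0353 and 0.0438 with GW4064, against 0.0780, 0.0824, 0.0730 and 0.0777 with DMSO. The groups were far apart, with the highest GW4064 value well under the lowest DMSO value, and Smad9 fell by 0.97 ± 0.07 on the log2 scale, 1.96-fold lower with GW4064 (adjusted p = 6.26e-05 in limma). Its probe was dim but well above background on all 8 arrays, and the difference was -0.998 on slide 1 and -0.94 on slide 2.

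The other SMADs differed by little. Smad1 and Smad5, which like Smad9 carry BMP signals, had log2 differences of -0.15 ± 0.05 and -0.08 ± 0.03, and neither passed (adjusted p = 0.0669 and 0.135 in limma). Smad5 nevertheless had no overlap, with 4.92 to 5.20 with GW4064 and 5.29 to 5.46 with DMSO, while Smad1 overlapped, with 0.247 to 0.271 with GW4064 and 0.268 to 0.303 with DMSO. Of the TGF-beta branch, Smad2 differed by -0.06 ± 0.04 and Smad3 by -0.03 ± 0.04. Smad4, the partner shared by both branches, differed by -0.13 ± 0.06, with an interval from -0.26 to just under 0. After normexp background correction Smad4 passed, at -0.20 ± 0.06 (adjusted p = 0.0364 in limma), and Smad1 passed with its probes averaged, at -0.18 ± 0.05 (adjusted p = 0.0354 in limma). The inhibitory SMADs, which are themselves induced by the pathway and damp it, did not pass: Smad7 differed by -0.08 ± 0.05 and Smad6 by 0.003 ± 0.08. In all, 7 of the 8 SMADs had a negative difference, and Smad6, the one that did not, was negative after normexp, quantile normalization or median centring. Over all genes tested, 6634 of 14476 differences were negative. Smad3 had 2 probes that differed in direction, and it was positive when they were averaged.

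**Figure D2:**
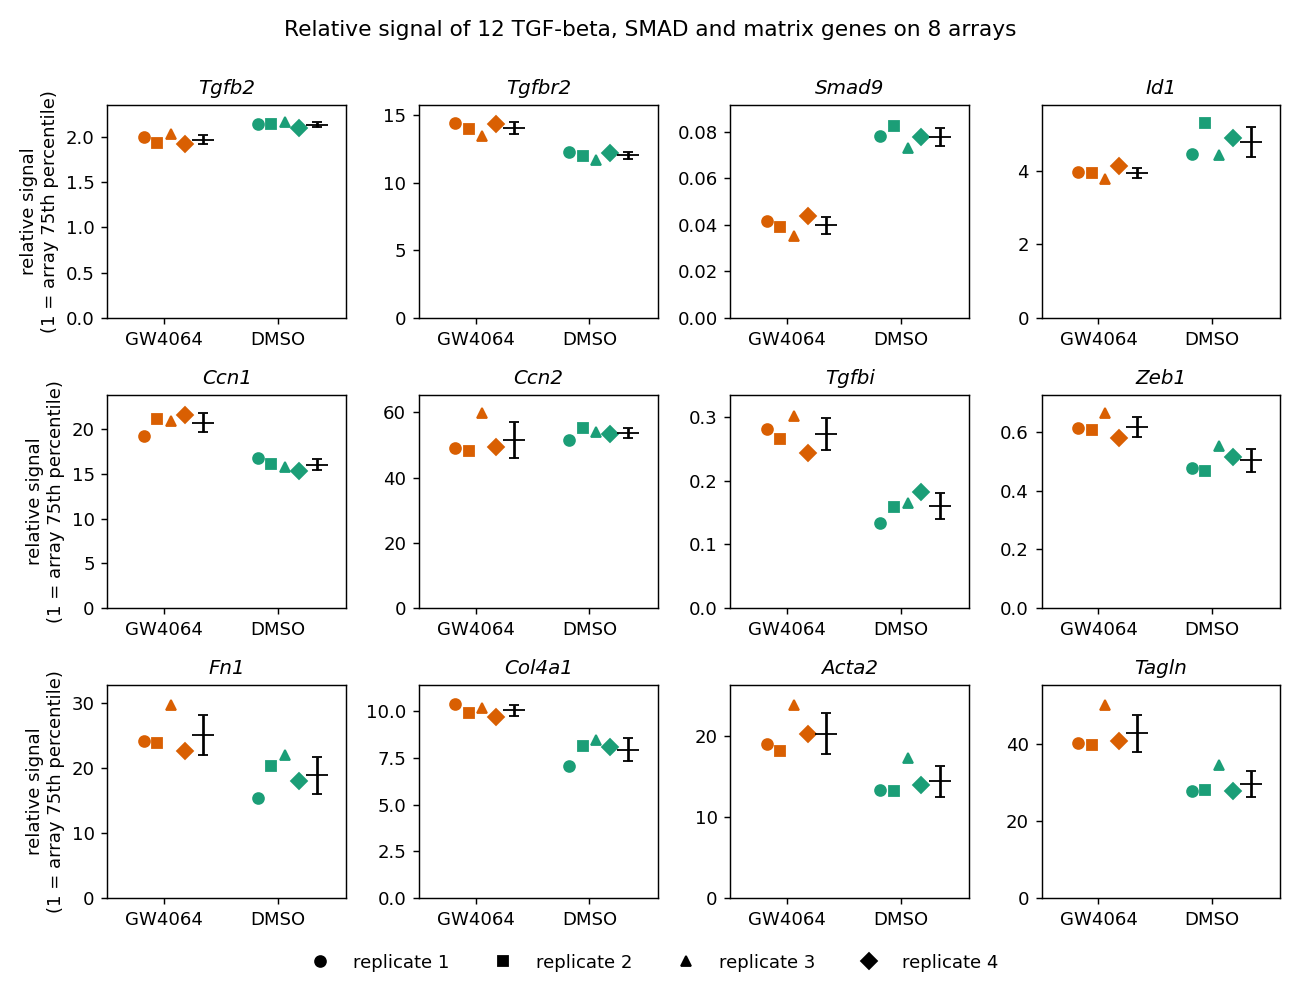
Relative signal (1 = the array's 75th percentile, linear axis from 0) of 12 genes on each of the 4 GW4064 and 4 DMSO arrays, with marker shape for the replicate number and black bars for mean and SD. Smad9 lies at 0.0353 to 0.0438 with GW4064 and 0.0730 to 0.0824 with DMSO, and for Acta2 and Tagln replicate 3 is the highest point of both groups.

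Of the 9 co-repressor and target genes, 4 rose and 1 fell, where 11.8% of all genes tested were higher and 8.95% lower. Tgfbi, a secreted matrix-binding protein named for its induction by TGF-beta, had 0.282, 0.265, 0.302 and 0.244 with GW4064, against 0.133, 0.159, 0.166 and 0.182 with DMSO. The groups did not overlap, and its log2 difference of 0.78 ± 0.10 (1.71-fold, adjusted p = 0.00125 in limma) was 0.91 on slide 1 and 0.64 on slide 2. Ccn1, a secreted regulator of adhesion also called Cyr61, had 19.3, 21.2, 20.9 and 21.6 with GW4064, against 16.8, 16.1, 15.8 and 15.4 with DMSO. It rose by 0.37 ± 0.05 on the log2 scale (adjusted p = 0.00119 in limma), with no overlap. Its relative Ccn2, the connective tissue growth factor that is a standard readout of TGF-beta in fibrosis, had 49.0, 48.2, 59.9 and 49.5 with GW4064, against 51.6, 55.2, 54.1 and 53.4 with DMSO. Of the GW4064 arrays, 3 lay below all DMSO arrays and replicate 3 lay above them, and the difference of -0.06 ± 0.07 did not pass, with an interval from -0.22 to 0.11. Without GW4064 replicate 3 it was -0.13 ± 0.04 (adjusted p = 0.0606 in limma), still outside the threshold. So 2 closely related targets differed in their result, although the difference between them was not tested.

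Id1, a helix-loop-helix inhibitor and an established target of BMP signalling, had 3.96, 3.92, 3.78 and 4.11 with GW4064, against 4.46, 5.28, 4.42 and 4.89 with DMSO. The groups did not overlap, and it fell by 0.27 ± 0.06 on the log2 scale (adjusted p = 0.0196 in limma). Zeb1, a repressor of epithelial genes, had 0.614, 0.607, 0.662 and 0.580 with GW4064, against 0.478, 0.468, 0.553 and 0.514 with DMSO. It rose 1.22-fold with no overlap (0.29 ± 0.06 on the log2 scale, adjusted p = 0.0150 in limma). Snai2, another repressor of that kind, had 0.0932, 0.0883, 0.114 and 0.0909 with GW4064, against 0.0762, 0.0754, 0.0810 and 0.0803 with DMSO. It rose 1.23-fold (adjusted p = 0.0328 in limma), and replicate 3 was the highest array of each group.

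The remaining targets did not pass. Snai1, the third of these repressors, had 0.0327 to 0.0363 with GW4064, against 0.0573, 0.0278, 0.0271 and 0.0216 with DMSO. DMSO replicate 1 lay above all GW4064 values and the other 3 DMSO arrays below them, so the difference of 0.13 ± 0.26 had a wide interval from -0.47 to 0.74. Without DMSO replicate 1 it was 0.43 (adjusted p = 0.0220 in limma). Thbs1, thrombospondin 1, which can activate latent TGF-beta, had 17.4 to 19.3 with GW4064 and 15.5 to 17.0 with DMSO. Its groups did not overlap, and at an adjusted p of 0.0537 in limma it lay just outside the threshold, as Fn1 at 0.0469 lay just inside. Skil, which encodes the co-repressor SnoN, differed by -0.07 ± 0.06.

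RefSeq promoter sequences of build GRCm38.p6, which run from 250 bases before to 50 bases after a gene's start, were at hand for 21 of the 38 genes. They were searched on both strands for CAGAC, the short sequence that SMADs bind, spelled GTCTG on the opposite strand. It was present in 12 of the 21 member genes, against 49.6% of 32851 windows, and GGAATG, the core of TEAD sites, in 3 of 21 (Acta2, Ccn1 and Col3a1), against 14.7%. AGGTCA, the core letters recognised by FXR and related nuclear receptors, was present in 0 of 21, against 16.3%. A member gene counted if any of its windows held a match, whereas the shares over all are of single windows, so the units differ. Such short matches are common, and neither a match nor its lack shows whether a factor binds. Tgfbi and Ccn1 are shown here because they were the targets with the smallest adjusted p among those that rose, each 5′ to 3′ along its gene with CAGAC or GTCTG in capitals, Tgfbi on the plus strand (chr13:56609336-56609635) and Ccn1 on the minus strand (chr3:145649936-145650235).
Tgfbi: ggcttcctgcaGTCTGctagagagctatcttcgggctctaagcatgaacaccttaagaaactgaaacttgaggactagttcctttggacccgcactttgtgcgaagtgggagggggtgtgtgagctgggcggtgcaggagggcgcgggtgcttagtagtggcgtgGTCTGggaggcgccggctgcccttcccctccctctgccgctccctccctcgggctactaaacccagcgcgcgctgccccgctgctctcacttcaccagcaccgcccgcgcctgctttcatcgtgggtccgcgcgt
Ccn1: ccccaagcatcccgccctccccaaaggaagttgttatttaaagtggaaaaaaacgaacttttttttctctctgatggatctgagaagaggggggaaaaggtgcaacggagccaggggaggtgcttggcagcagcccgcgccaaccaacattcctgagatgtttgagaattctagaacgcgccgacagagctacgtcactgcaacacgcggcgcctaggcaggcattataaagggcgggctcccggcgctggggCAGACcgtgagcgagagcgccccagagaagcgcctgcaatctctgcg

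The 9 matrix protein genes all had a positive difference, with a median of 0.21, and 4 of them rose. Over all genes tested, 7842 of 14476 differences were positive, and 11.8% of the genes were called higher. The 4 that rose were the basement membrane collagen chains Col4a1 and Col4a2, the fibrillar collagen chain Col5a1 and the adhesive glycoprotein Fn1, fibronectin. Col4a1 had 10.4, 9.90, 10.2 and 9.72 with GW4064, against 7.10, 8.16, 8.47 and 8.11 with DMSO. Its groups were apart, and it rose by 0.34 ± 0.06 on the log2 scale (adjusted p = 0.00511 in limma). Col4a2, whose protein joins that of Col4a1 in the same triple helix, had 11.7, 11.6, 11.4 and 10.0 with GW4064, against 9.07, 9.98, 9.96 and 8.97 with DMSO. The groups came close, GW4064 replicate 4 against DMSO replicate 2, without overlapping, and it rose by 0.23 ± 0.06 (adjusted p = 0.0341 in limma).

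Col4a1 and Col4a2 are transcribed in opposite directions from annotated starts 21 bases apart, so that their first 22 bases overlap on opposite strands, and their windows share 78 bases (chr8:11312777-11312854). Both are given 5′ to 3′ along their own gene, Col4a1 on the minus strand (chr8:11312777-11313076) and Col4a2 on the plus strand (chr8:11312555-11312854), with the shared bases in capitals, since both rose and they lie next to each other. The capitals of one line are the reverse complement of those of the other.
Col4a1: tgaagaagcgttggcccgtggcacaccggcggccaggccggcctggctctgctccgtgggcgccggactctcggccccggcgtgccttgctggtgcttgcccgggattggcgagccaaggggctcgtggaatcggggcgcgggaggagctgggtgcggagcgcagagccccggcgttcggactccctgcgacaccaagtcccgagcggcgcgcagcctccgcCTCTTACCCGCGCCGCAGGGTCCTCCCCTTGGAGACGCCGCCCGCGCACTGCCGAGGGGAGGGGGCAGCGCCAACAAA
Col4a2: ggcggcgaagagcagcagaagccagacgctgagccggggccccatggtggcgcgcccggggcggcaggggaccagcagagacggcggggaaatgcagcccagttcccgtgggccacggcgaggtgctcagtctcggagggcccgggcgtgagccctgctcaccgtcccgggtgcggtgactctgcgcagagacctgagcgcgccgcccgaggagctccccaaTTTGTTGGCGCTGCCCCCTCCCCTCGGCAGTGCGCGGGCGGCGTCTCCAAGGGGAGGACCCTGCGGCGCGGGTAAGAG

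Col5a1, which helps start collagen fibrils, had 0.875, 0.799, 1.01 and 0.972 with GW4064, against 0.607, 0.698, 0.812 and 0.650 with DMSO. It was the one called member whose groups overlapped, by GW4064 replicate 2 and DMSO replicate 3, and it rose by 0.40 ± 0.10 on the log2 scale (adjusted p = 0.0283 in limma). Fn1 had 24.2, 23.8, 29.6 and 22.6 with GW4064, against 15.4, 20.3, 21.9 and 17.9 with DMSO. The groups did not overlap, and Fn1 rose by 0.41 ± 0.12 (adjusted p = 0.0469 in limma).

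The fibrillar collagens of scar tissue did not pass. Col1a1 had 2.34 to 3.19 with GW4064 and 2.12 to 2.47 with DMSO, a difference of 0.21 ± 0.10, and its partner chain Col1a2 had 18.1 to 19.1 with GW4064 and 14.1 to 18.9 with DMSO, a difference of 0.19 ± 0.08. For Col1a2 a single array made the overlap: without DMSO replicate 3 the difference was 0.26 (adjusted p = 0.0204 in limma). Col3a1 differed by 0.11 ± 0.08. Sparc, a collagen-binding glycoprotein, differed by 0.16 ± 0.08, and the proteoglycan gene Bgn by 0.05 ± 0.11. Bgn was the one matrix gene whose sign turned, to -0.06 on slide 1 and to -0.06 without DMSO replicate 4.

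Both cytoskeletal genes rose. Tagln, the actin-binding protein SM22, had 40.1, 39.8, 49.98 and 40.8 with GW4064, against 27.7, 28.1, 34.6 and 27.8 with DMSO. Acta2, smooth muscle actin, the usual marker of myofibroblasts, had 19.0, 18.1, 23.8 and 20.2 with GW4064, against 13.3, 13.2, 17.2 and 13.9 with DMSO. Replicate 3 was the highest array of both groups in both genes, yet the groups stayed apart. Tagln rose by 0.53 ± 0.10 and Acta2 by 0.49 ± 0.11 on the log2 scale (adjusted p = 0.00720 and 0.0157 in limma). The promoter of Acta2 (chr19:34255324-34255623, minus strand) holds GTCTG once, in capitals, and is shown as that of the marker gene of this group.
Acta2: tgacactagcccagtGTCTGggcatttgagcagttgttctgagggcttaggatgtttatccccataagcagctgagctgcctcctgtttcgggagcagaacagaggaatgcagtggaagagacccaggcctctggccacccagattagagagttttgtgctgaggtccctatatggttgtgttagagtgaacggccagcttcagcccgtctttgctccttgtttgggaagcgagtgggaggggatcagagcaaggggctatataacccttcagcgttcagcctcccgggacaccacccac

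Markers of other cells were followed as well, since no sort is stated. In such samples fewer cells of a type and less RNA per cell cannot be told apart. Over all genes tested, 11.8% were higher and 8.95% lower with GW4064. The sums given here and below take the brightest probe of every listed gene on the array, tested or not. They cover 18 proximal tubule and 15 fibroblast and pericyte genes. Of 17 tested proximal tubule markers 12 rose and 1 fell, with summed relative signals of 185 to 209 with GW4064 and 139 to 176 with DMSO. Without Ass1, an enzyme of arginine synthesis, these sums were 156 to 177 with GW4064 and 125 to 161 with DMSO, which overlapped. Without Hnf4a they were 161.2 to 183.3 with GW4064 and 125.4 to 161.6 with DMSO, which overlapped slightly. Without Kap, the marker that fell, they lay farther apart, at 155 to 177 with GW4064 and 98.4 to 116.5 with DMSO. Of 13 tested fibroblast and pericyte markers, which include no member, 4 rose and 2 fell, with sums of 25.1 to 28.3 with GW4064 and 31.6 to 43.3 with DMSO. Dpt and Lum, which mark fibroblasts, were well above background on 0 of 8 arrays. The genes of this list that rose were Cnn1, Des, Pdgfrb and Thy1, and those that fell were Fbln2 and Lama2, named here after their values were seen. Cnn1, calponin of smooth muscle, had 4.70, 4.36, 5.77 and 4.82 with GW4064, against 3.21, 2.98, 3.96 and 3.38 with DMSO, with replicate 3 highest in both groups as for Acta2 and Tagln. Fbln2, a fibulin, had 15.1 to 18.2 with GW4064 and 23.1 to 33.4 with DMSO. The lower sum rested on it. Without Fbln2 the sums were 9.69 to 10.9 with GW4064 and 8.33 to 9.84 with DMSO, which overlapped slightly, and the direction between the group means turned. The list held calls in both directions, and its part in the rise of cytoskeletal and matrix members was not tested.

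Endothelial markers had 4 of 9 higher and 0 lower, with sums of 6.28 to 7.07 with GW4064 and 5.49 to 6.40 with DMSO, and Tek was well above background on 0 arrays. Leukocyte markers had 4 of 9 higher and 0 lower, with sums of 13.9 to 16.1 with GW4064 and 10.66 to 12.2 with DMSO. Csf1r, the receptor of a macrophage growth factor, made up most of that gap, and without it the sums were 5.64 to 7.25 with GW4064 and 5.62 to 6.73 with DMSO, which overlapped. Markers of other nephron segments and podocytes had 0 of 7 higher and 2 lower, with sums of 8.23 to 10.0 with GW4064 and 7.71 to 9.75 with DMSO, and Atp6v1b1 and Calb1 were well above background on 0 arrays. Beside these counts, 11.8% of all genes tested were higher and 8.95% lower. The genes left out of these sums were chosen after their values were seen. The part of other cells in the results for the members was not tested.

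Of the 5 genes for crosslinking and turnover, 4 were tested and 0 passed in limma (0 also at an unadjusted p of 0.05). Loxl2, a lysyl oxidase that crosslinks collagen, had 5.55, 3.73, 3.69 and 3.75 with GW4064, against 3.19, 3.71, 2.98 and 3.95 with DMSO. GW4064 replicate 1 stood well above the other arrays of its group, and the 2 dimmer Loxl2 probes differed by -0.06 ± 0.05 and -0.06 ± 0.07, against 0.26 ± 0.15 for the probe used. Without GW4064 replicate 1 that last value was 0.11 ± 0.10. Lox, the founding member of that enzyme family, differed by 0.03 ± 0.08. Mmp2, a gelatinase, differed by 0.19 ± 0.11 and Timp3, a matrix-bound inhibitor of such proteases, by 0.04 ± 0.06.

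Each slide held a balanced part of the comparison. All 14 called members had the same direction on slide 1 and slide 2, as did 29 of the 37 tested, where 72.9% of all genes did. The calls came from a fit over both slides, so the agreement of the 14 was largely set by the call. With the slide as a block 13 members passed, 12 of them among the 14. Of all 14476 genes, 1629 were higher and 1227 lower in that fit. Fn1 and Tgfb2 dropped out, at adjusted p of 0.0517 and 0.0611 in limma, and Smad1 came in. With 2 arrays against 2, 5 members passed on slide 1 (6.67% of all genes passed there) and 0 on slide 2 (1.52% of all genes). Those on slide 1 were Acta2, Smad9, Tagln, Tgfbi and Zeb1. At an unadjusted p of 0.05 in limma, 10 members passed on slide 2 (17.2% of all genes).

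**Figure D3:**
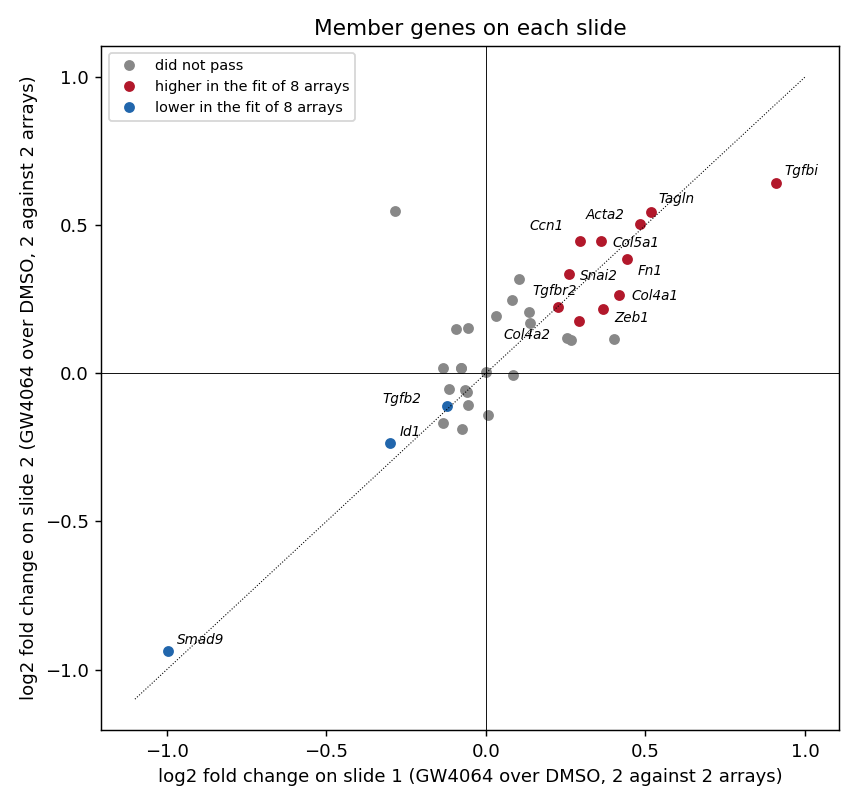
Log2 fold change (GW4064 over DMSO, 2 arrays against 2) of each of the 37 tested members on slide 1 (horizontal) and slide 2 (vertical), with the dotted line at equal values. The 14 called members lie below and left or above and right of 0 on both axes, from Smad9 at -0.998 and -0.94 to Tgfbi at 0.91 and 0.64.

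When each array was left out in turn, 8 of the 14 calls held throughout: Acta2, Ccn1, Col4a1, Smad9, Tagln, Tgfbi, Tgfbr2 and Zeb1. The number of members called was 9 without GW4064 replicate 1 and 8 without DMSO replicate 4, and 10 to 14 without any other array. Over all genes tested, 2076 to 2827 were called in these fits. Tgfb2 passed only while GW4064 replicate 3 was the array left out (adjusted p of 0.0759 to 0.113 in limma without each of the others). Fn1 passed only while DMSO replicate 3 was left out (0.0540 to 0.108 otherwise). Col5a1 was lost without each array except GW4064 replicate 2 and DMSO replicate 3 (0.0564 to 0.0750). Col4a2 was lost without GW4064 replicates 1, 2 or 3 or DMSO replicates 1 or 4 (0.0761 to 0.0900). Snai2 was lost without GW4064 replicate 1 or DMSO replicates 1, 2 or 4 (0.0633 to 0.0846), and Id1 without GW4064 replicates 2 or 3 or DMSO replicate 4 (0.0509 to 0.0556). Each of these 6 genes kept its direction in every such fit. Smad1 was gained without DMSO replicate 1 (adjusted p = 0.0284 in limma).

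Within the groups, replicate 3 stood apart for part of the set. It was the highest of its own group in both the GW4064 and the DMSO samples for 11 of the 37 members (29.7%), against 10.5% of all genes tested. These were Acta2, Col5a1, Fn1, Mmp2, Smad7, Snai2, Sparc, Tagln, Tgfb2, Tgfb3 and Zeb1. Both arrays lay on slide 2. Proximal tubule markers were lowest in the same samples, with a summed relative signal of 185 in GW4064 replicate 3 against 201 to 209 in the other GW4064 samples, and 139 in DMSO replicate 3 against 158 to 176 in the other DMSO samples. The sums of fibroblast and pericyte markers and of other nephron segments and podocytes were highest in replicate 3 of both groups. With GW4064 only, the endothelial sum was highest and the leukocyte sum lowest in replicate 3. The reason for this pattern was not tested. With replicate 3 of both groups left out, a check added after the data were seen, 13 members passed, 12 of them among the 14. Of all 14476 genes, 1322 were higher and 976 lower in that fit. Tagln and Acta2 then differed by 0.53 ± 0.04 and 0.50 ± 0.06, while Col4a2 and Tgfb2 no longer passed and Col1a2 did.

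**Figure D4:**
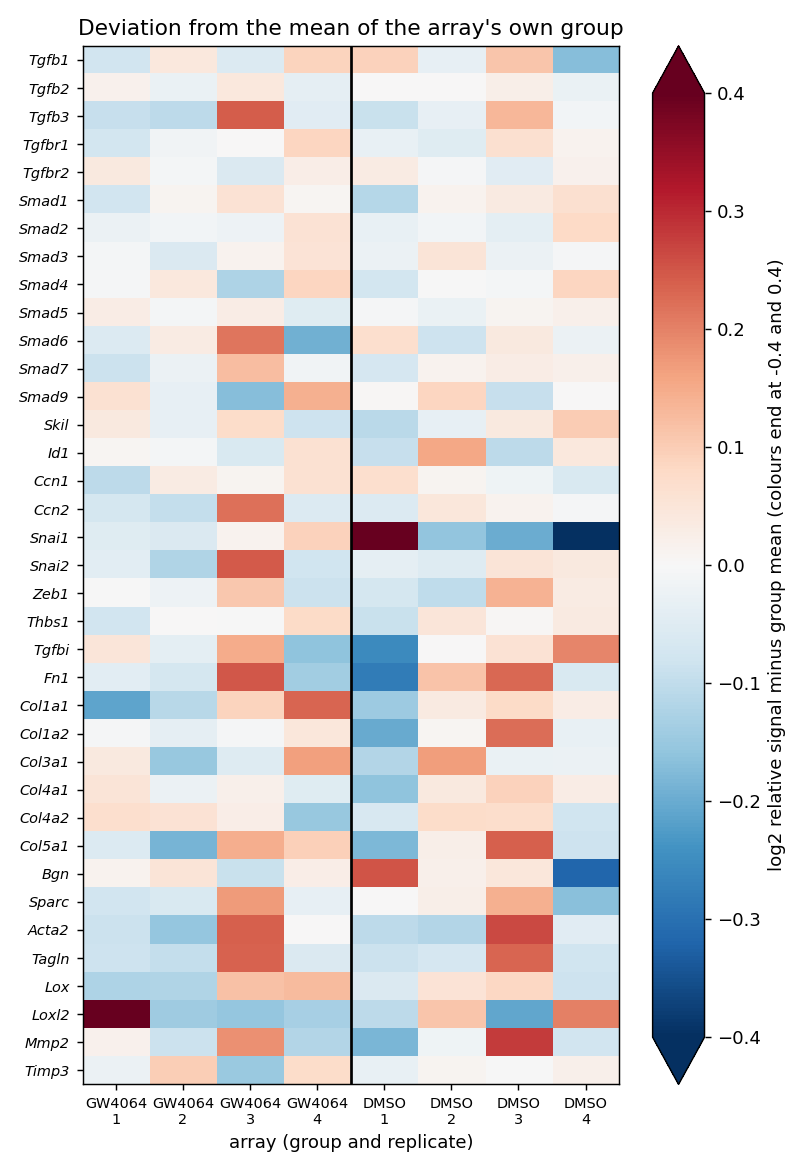
Deviation of each array from its own group's mean (log2 relative signal, colour scale ending at -0.4 and 0.4) for the 37 tested members in rows and the 4 GW4064 and 4 DMSO arrays in columns. Replicate 3 is the reddest column of its group for 11 members in both groups, Acta2, Tagln and Fn1 among them, and single dark cells mark Loxl2 in GW4064 replicate 1 and Snai1 in DMSO replicate 1.

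Further genes of the pathway and of the matrix were read from the same fit. Of 123 such genes 113 were tested, 18 rose and 20 fell, and their median log2 fold change was 0.003. Of the 113 genes 33.6% were called, against 20.8% of all genes tested. These counts stand beside 11 higher and 3 lower among the members, and the difference between the lists was not tested. These further genes, too, were chosen with earlier results of these data known.

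The largest difference on the ligand side lay in latency. Ltbp1, which tethers latent TGF-beta to the matrix, had 0.812, 0.781, 0.915 and 0.916 with GW4064, against 0.283, 0.324, 0.351 and 0.307 with DMSO, and rose 2.71-fold (1.44 ± 0.08 on the log2 scale, adjusted p = 1.39e-05 in limma). Lrrc32, also called GARP, which holds latent TGF-beta at the cell surface, had 2.42 to 3.03 with GW4064 and 1.58 to 1.91 with DMSO and rose 1.56-fold. Neither gene's groups overlapped. Ltbp4, of the same family as Ltbp1, fell by 0.22 ± 0.04, and Bmp4, a BMP ligand, by 0.25 ± 0.05. Of the 22 genes tested in that list 3 rose and 3 fell (27.3%, against 20.8% of all genes tested), with a median of -0.04.

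Of 15 regulators of SMAD signalling 2 rose and 1 fell, or 20%, which is near the 20.8% called over all genes tested. Pmepa1, a feedback inhibitor that TGF-beta induces, rose by 0.31 ± 0.08 and Tob1, an antiproliferative protein, by 0.17 ± 0.05, whereas Nedd4l, a ubiquitin ligase of activated Smad2 and Smad3, fell by 0.20 ± 0.04. Ski, the co-repressor related to Skil, differed by 0.28 ± 0.10 and did not pass (adjusted p = 0.0914 in limma).

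Of 17 other target genes 3 rose and 3 fell (35.3%, against 20.8% of all genes tested). Id4, of the same family as Id1, had 0.260, 0.255, 0.230 and 0.348 with GW4064, against 0.525, 0.523, 0.414 and 0.557 with DMSO, and fell by 0.89 ± 0.14 on the log2 scale. Id3, named here after its value was seen, fell by 0.20 ± 0.06, and Id2, likewise chosen, differed by 0.11 ± 0.07 and did not pass. Itga5, the fibronectin receptor subunit, rose by 0.47 ± 0.08, the stress-induced factor Atf3 by 0.27 ± 0.06 and Tsc22d1 by 0.16 ± 0.04.

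The other matrix genes moved in both directions, 8 higher and 7 lower of 33 tested (45.5%, against 20.8% of all genes tested). Col16a1, a collagen associated with fibrils, had 4.18, 4.04, 4.45 and 4.32 with GW4064, against 1.55, 1.76, 2.01 and 1.65 with DMSO, and rose 2.45-fold (adjusted p = 2.45e-05 in limma). Lama4, a laminin chain, had 0.0910 to 0.112 with GW4064 and 0.184 to 0.203 with DMSO and fell by 0.97 ± 0.07. The basement membrane collagen chain Col4a5 fell by 0.37 ± 0.04, while Col4a1 and Col4a2 rose. Col6a1, a microfibrillar collagen, fell by 0.69 ± 0.07.

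Of 26 tested genes for processing and turnover, 6 fell and 2 rose (30.8%, against 20.8% of all genes tested). Mmp7, matrilysin, which injured tubules express, had 0.0193 to 0.0214 with GW4064 and 0.0440 to 0.0467 with DMSO, and fell by 1.16 ± 0.04 (adjusted p = 1.72e-06 in limma). Its signal was dim, lower than that of Smad9 in both groups. Adamts1, a protease of proteoglycans, fell by 0.66 ± 0.07 and P4ha2, a collagen prolyl hydroxylase, by 0.63 ± 0.13, whereas Mmp10, stromelysin 2, rose by 0.73 ± 0.08. All 4 genes, named for the smallest p in that list, had groups that did not overlap.

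**Figure D5:**
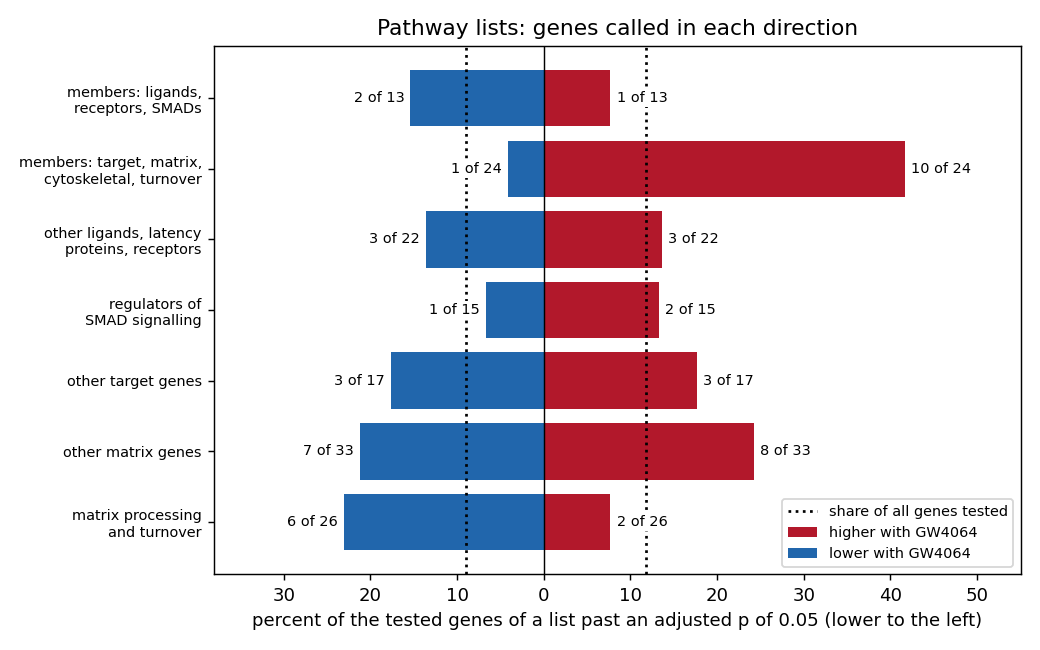
Share of the tested genes of each list that were called in limma at an adjusted p of 0.05, higher with GW4064 to the right and lower to the left, with counts beside the bars and dotted lines at the shares over all genes tested (11.8% higher, 8.95% lower). Of the bars shown, the longest is that of the 24 member genes for targets, matrix, cytoskeleton and turnover, of which 10 rose and 1 fell.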

How the data were processed

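RNA of 8 samples was read on 1-colour Agilent arrays. Per the file headers, the deposited spot intensity had its background subtracted by Feature Extraction 10.7.3.1, and limma is also listed in the submitters' processing notes. The authors also deposited a table of log2 values whose columns all had a median of 6.598; its scale and centring are unstated, and it served as an alternative only.

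Control spots and spots marked as outliers (98 to 174 per array) were left out, spots of a probe were averaged, and each value is the log2 processed signal less its array's 75th percentile (1412 ± 207 for GW4064 and 1626 ± 187 for DMSO, SD, n = 4 each). A probe was kept if well above background on at least 4 of 8 arrays, which left 24723 probes. Accessions were matched to the RefSeq gene table of GRCm38.p6 for names only, since the file headers give build mm9; 27234 probes (69.1%) received a symbol. The brightest kept probe stood for a gene. For 9 of the 11 members with several probes all probes had the same direction; Loxl2 and Smad3 were the exceptions.

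The comparison used lmFit and eBayes of limma 3.58.1 (R 4.3.3), with Benjamini-Hochberg adjustment over all 14476 genes, at a threshold of 0.05 and with no covariate. The fit was tested on simulated data. Errors of log2 differences are standard errors from this fit. The number of arrays limits the precision. Whether samples of 1 group were separate cultures or animals is not stated in the labels, so the p-values reflect the spread between samples alone, and that spread may be technical. Groups share replicate numbers, but same-numbered samples did not all deviate together (correlations of -0.13, -0.03, 0.19 and -0.02, with replicate 3 alone above 0.1). GW4064 replicate 2 and DMSO replicate 1, of different numbers, reached 0.20. The numbers were therefore not taken as pairs.

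The members and all gene lists were chosen with earlier results of these data known. All members are named, with Slc51a and Slc51b, and from each other list up to 4 genes with the smallest p. The text says where another gene was named after its value was seen. The value of 1 gene of these lists is not reported here. Alternatives covered background correction, normalization, the filter on dim probes, the choice of probe, replicate and slide blocks, single slides, the deposited log2 table and leaving out arrays. Normexp (offset 50) was run on median spot signals, with the background of spots marked as background outliers set to the array's median.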

Additional observations from a re-analysis of the deposited data

Results flagged for a closer look

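For each of the 37 tested members, the 4 values of each group were searched for 1 array apart from the other 3. Of 74 groups 6 (8.11%) had such an array, at a cut-off with a nominal rate of about 1 in 20. The share over all genes tested is not given here and the members share arrays, so no excess is read from this. Values are log2 relative signals. Tagln stood apart in replicate 3 of both groups, at 5.64 in GW4064 replicate 3 against 5.31 to 5.35 on the other GW4064 arrays, and at 5.11 in DMSO replicate 3 against 4.79 to 4.81 on the other DMSO arrays. Ccn2 was high in GW4064 replicate 3, at 5.90 against 5.59 to 5.63. Loxl2 was high in GW4064 replicate 1, at 2.47 against 1.88 to 1.91. Smad2 was high in GW4064 replicate 4, at -0.55 against -0.63 to -0.62. Smad7 was low in DMSO replicate 1, at -0.70 against -0.62 to -0.60. Tagln was the one of these genes that passed between GW4064 and DMSO. The reason for these values was not tested.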

How the results depend on the processing

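Of the 14 called members, 8 (Acta2, Ccn1, Col4a1, Smad9, Tagln, Tgfbi, Tgfbr2 and Zeb1) passed under all 9 alternatives that used all arrays and in every fit without 1 array. All 14 kept their direction in those fits and on each slide, though these fits reuse the arrays that gave the calls. The count of members called, 14 (11 higher, 3 lower), fell to 9 (7 higher) with no filter on dim probes, which raised the genes tested to 20632; Col4a2, Col5a1, Fn1, Snai2 and Tgfb2 were lost. It was 5 (4 and 1) on slide 1 and 0 (0 and 0) on slide 2 in limma, with 2 arrays against 2, and 8 to 14 (7 to 12 higher, 1 to 3 lower) without 1 array. Over all genes, 3006 calls (1711 and 1295) became 966 (607 and 359) on slide 1 and 220 (168 and 52) on slide 2. With no filter 1251 genes were higher and 916 lower, and 2076 to 2827 genes were called without 1 array. For the other pathway genes, 38 calls (18 and 20) became 19 (11 and 8) and 3 (2 and 1), 11 were higher with no filter, and 10 to 19 were higher without 1 array. The replicate block gave 13 members, losing Tgfb2, and 2322 genes. Among uncalled members, Smad4 passed with normexp, Thbs1 with the filter on all 8 arrays, and Smad1 with probes averaged or the slide block. Only for replicate 3 did the samples of the same number correlate best with each other. Signs turned only for uncalled members. Tgfb1 (-0.03) was 0.017 on slide 2, 0.025 without replicate 3 of both groups and -0.087 to 0.0063 without 1 array. Smad3 (-0.03) was 0.0047 with its probes averaged and 0.017 on slide 2. Smad6 (0.003) was -0.032 with normexp, -0.0077 with quantile normalization, -0.012 with median centring, -0.0078 in the deposited table, -0.055 without replicate 3 of both groups and -0.068 to 0.067 without 1 array. Skil was 0.0071 on slide 1 and Ccn2 0.018 on slide 2. Snai1 was -0.28 on slide 1 and -0.043 to 0.43 without 1 array, Lox -0.093 and -0.014 to 0.069, and Bgn -0.056 and -0.058 to 0.13. Timp3 was -0.0065 on slide 2. The causes were not tested.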
